A study of Mus musculus with 24 samples.

Results

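The response of Trim28-deficient naive CD4 T cells to stimulation through the T cell receptor was measured on 8 of the series' 24 one-colour microarrays: 4 of stimulated cells and 4 of unstimulated cells, both from mice with a T cell-specific conditional knockout of Trim28 (CKO). The arrays were taken by their labelled genotype, cell type and treatment, and all 16489 genes that passed the filter on signal were compared. Stimulated cells had been exposed for 13 h to antibodies against CD3 and CD28 coated on a plate. Both groups were naive CD4 T cells sorted as positive for CD4 and for a marker of naive cells and negative for CD25, from female C57BL/6 mice aged 7, 6, 6 and 7 weeks for CKO stimulated replicates 1 to 4 and 6, 6, 6 and 7 weeks for CKO unstimulated replicates 1 to 4. Stimulated and unstimulated naive cells of wild type (WT) mice, 4 arrays each, served to compare the size of the response. These mice were aged 7, 6, 6 and 7 weeks for WT stimulated replicates 1 to 4 and 6, 6, 6 and 7 weeks for WT unstimulated replicates 1 to 4. A further 8 arrays of regulatory T cells entered only the estimate of the spread between arrays. The labels give neither the Cre line, nor whether the unstimulated cells were kept in culture for the same time, nor whether each array held the cells of 1 animal. Stimulation and time in culture therefore cannot be told apart, and a p-value here reflects how far these samples vary, which may be technical.

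Naive CD4 T cells circulate in a quiescent state held by factors such as KLF2 and FOXO1. Signals through the T cell receptor and CD28 activate NFAT, AP-1 and NF-κB and the kinase cascades behind MYC and mTORC1, after which the cell makes interleukin 2 and its receptor, enlarges, builds ribosomes and prepares to copy its DNA. Trim28 (KAP1) is a corepressor that is brought to DNA by zinc finger proteins of the KRAB family and recruits the H3K9 methyltransferase SETDB1, HP1 proteins and histone deacetylases.

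Depth on an array is its brightness. The signal at the 75th percentile of all probes lay between 201 and 372 on the CKO stimulated arrays and between 171 and 266 on the CKO unstimulated arrays, and each value below is a scaled signal, in which that percentile is 100. Between 55.1% and 60.7% of probes on the CKO stimulated arrays and 54.6% to 61.2% on the CKO unstimulated arrays were well above background. Arrays of 1 group correlated at 0.970 to 0.993 (CKO stimulated) and 0.981 to 0.988 (CKO unstimulated) over genes, against 0.882 to 0.918 between the groups. The arrays lay on 6 slides, each scanned once, and only slides 1 and 4 held arrays of both CKO groups (replicates 1 and 3). Of 9921 called genes with values there, 9860 (99.4%) moved in the called direction on both, and 9710 genes were called with slide as a block. The arrays of slides 1 and 4 were among those that gave the calls. Agreement in direction there is thus in part built in and is no independent check.

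Trim28 had a scaled signal of 211, 207, 235 and 144 in CKO stimulated arrays, against 149.5, 186, 200.4 and 245 in CKO unstimulated arrays, and these ranges overlapped (log2 fold change 0.03 ± 0.17, adjusted p = 0.889, with the sign turned to -0.03 under quantile normalization). All 8 WT arrays lay above all 8 CKO arrays, at 1059, 1456, 1353 and 1210 in WT stimulated arrays and 496, 554, 595 and 549 in WT unstimulated arrays, a log2 fold change of 1.20. The response of Trim28 in CKO cells was lower than that in WT cells by a log2 difference of -1.17 ± 0.24, adjusted p = 0.00756. The sources used here do not give the probe's place relative to the deleted exons, and the labels do not say what share of sorted cells had lost it.

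Markers of the T cell were present on all 8 arrays. Cd4, the coreceptor, had a scaled signal of 54.9, 48.8, 59.9 and 44.3 in CKO stimulated arrays, against 83.4, 90.9, 85.9 and 88.2 in CKO unstimulated arrays (log2 fold change -0.75 ± 0.15, adjusted p = 0.000139). Cd3e, a chain of the receptor complex, had 273, 277, 276 and 203 in CKO stimulated arrays, against 204, 169.7, 159 and 222 in CKO unstimulated arrays, and this difference did not pass the test (log2 fold change 0.45 ± 0.24, adjusted p = 0.116). Of 13 genes of T cell identity, 3 rose and 5 fell. The kinase Zap70 (1.73 ± 0.15 on the log2 scale) and Cd5 (1.70 ± 0.13) rose, while Thy1 (-2.06 ± 0.25) and the signalling chain Cd247 (-1.21 ± 0.16) fell.

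Markers of other cells were measured alongside, because cells of other types add their own transcripts to a bulk sample. All 4 unstimulated CKO arrays carried more signal of such markers than the stimulated ones for B cells and for CD8 T and NK cells. The summed scaled signal of 15 B cell markers was 350 to 1430 in CKO stimulated arrays and 3910 to 13400 in CKO unstimulated arrays, and 14 of them fell, among them Cd79b (40.9 to 171 in CKO stimulated arrays and 851 to 2776 in CKO unstimulated arrays, log2 fold change -4.11 ± 0.51, adjusted p = 6.45e-07), Ms4a1 (-3.06 ± 0.68) and Cd74 (-3.26 ± 0.50). None of the 15 was below background on all CKO stimulated arrays. For 18 myeloid and dendritic markers the sums were 1530 to 15000 in CKO stimulated arrays and 6450 to 36000 in CKO unstimulated arrays, which overlap. Of these, 14 fell, and 2 were below background on every CKO stimulated array. Lyz2, lysozyme, stood at 198, 1128, 118 and 74.3 in CKO stimulated arrays, against 3336, 4445, 2035 and 2543 in CKO unstimulated arrays (log2 fold change -3.82 ± 0.74, adjusted p = 0.000151) and was highest in replicate 2 of both groups; its probe may also read the near-identical Lyz1. Tyrobp, an adaptor of myeloid and NK receptors, fell (log2 fold change -4.14 ± 0.68).

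For 11 markers of CD8, NK and unconventional T cells the sums were 758 to 1210 in CKO stimulated arrays and 2170 to 4700 in CKO unstimulated arrays. Of these, 10 fell and 3 were below background on every CKO stimulated array. Gzma, a granzyme of cytotoxic cells, had 3.85, 5.54, 1.47 and 5.13 in CKO stimulated arrays, against 515, 548, 123 and 202 in CKO unstimulated arrays (log2 fold change -6.34 ± 0.55, adjusted p = 3.62e-09), so the CKO unstimulated arrays split into a brighter pair (replicates 1 and 2) and a dimmer pair (replicates 3 and 4). Prf1, perforin, fell (log2 fold change -3.20 ± 0.24) and so did Cd8a (-2.62 ± 0.51), which was above background on 2 of 4 CKO stimulated arrays and did not pass after normexp (adjusted p = 0.346) or with a common floor on signal (0.176). A second probe of Cd8b1 disagreed in sign with the one used (0.74 against -1.39). All 4 erythroid and platelet markers tested fell, and 2 were below background on every CKO stimulated array. Their sums were 6.35 to 29.8 in CKO stimulated arrays and 24.9 to 1510 in CKO unstimulated arrays, and without CKO unstimulated replicate 2 the calls of Hba-a1 (adjusted p = 0.0564) and Alas2 (adjusted p = 0.0616) were lost, as they were after normexp (adjusted p = 0.0535 and 0.244) and with the floor (0.0832 and 0.28). Of 4 stromal and epithelial markers 1 rose and 1 fell, with sums of 127 to 212 in CKO stimulated arrays and 543 to 898 in CKO unstimulated arrays. Fewer cells of a type and less RNA per cell cannot be told apart in bulk samples, and the part of these markers in the results below was not tested.

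**Figure D1:**
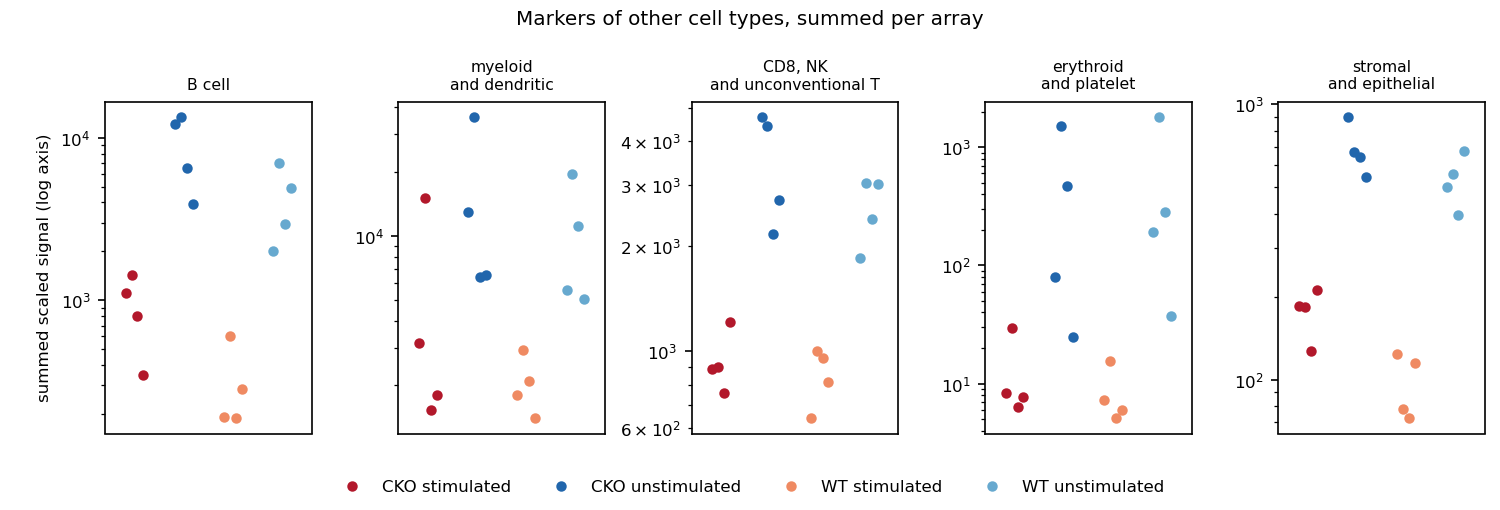
Summed scaled signal (log axis) of the markers of 5 other kinds of cell, 1 point per array, in CKO stimulated, CKO unstimulated, WT stimulated and WT unstimulated cells from left to right. For B cell markers the CKO stimulated arrays lie between 350 and 1430, below the CKO unstimulated arrays at 3910 to 13400, and the WT groups are ordered the same way.

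Stimulated and unstimulated CKO cells differed widely. Of 16489 genes, 9922 (60.2%) passed an adjusted p of 0.05, with 4904 (29.7%) higher and 5018 (30.4%) lower in CKO stimulated cells. The number called depended on the processing: it was 5936 after normexp background correction, 8221 with a common floor on signal and 9440 of 27670 genes with no filter on signal. The median log2 fold change over all genes was -0.08, its 10th and 90th percentiles were -1.67 and 1.46, and the median standard error was 0.22 (n = 4 arrays a group). At least 2-fold changes were called for 2843 genes that rose and 3078 that fell, and at least 8-fold changes for 229 and 508 genes. The groups did not overlap for 8844 of the called genes. The median over all genes moved to -0.25 when arrays were scaled on probes above background everywhere. The first principal component of the 16 naive arrays held 67.9% of the variance and parted the treatments: the CKO stimulated arrays scored -72.9 to -59.7 and the CKO unstimulated arrays 94.9 to 113, against -121 to -103 in WT stimulated arrays and 74.3 to 83.3 in WT unstimulated arrays. With 60.2% of genes called, a call for a single gene is common, so the counts of gene groups below are read against 29.7% higher and 30.4% lower.

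**Figure D2:**
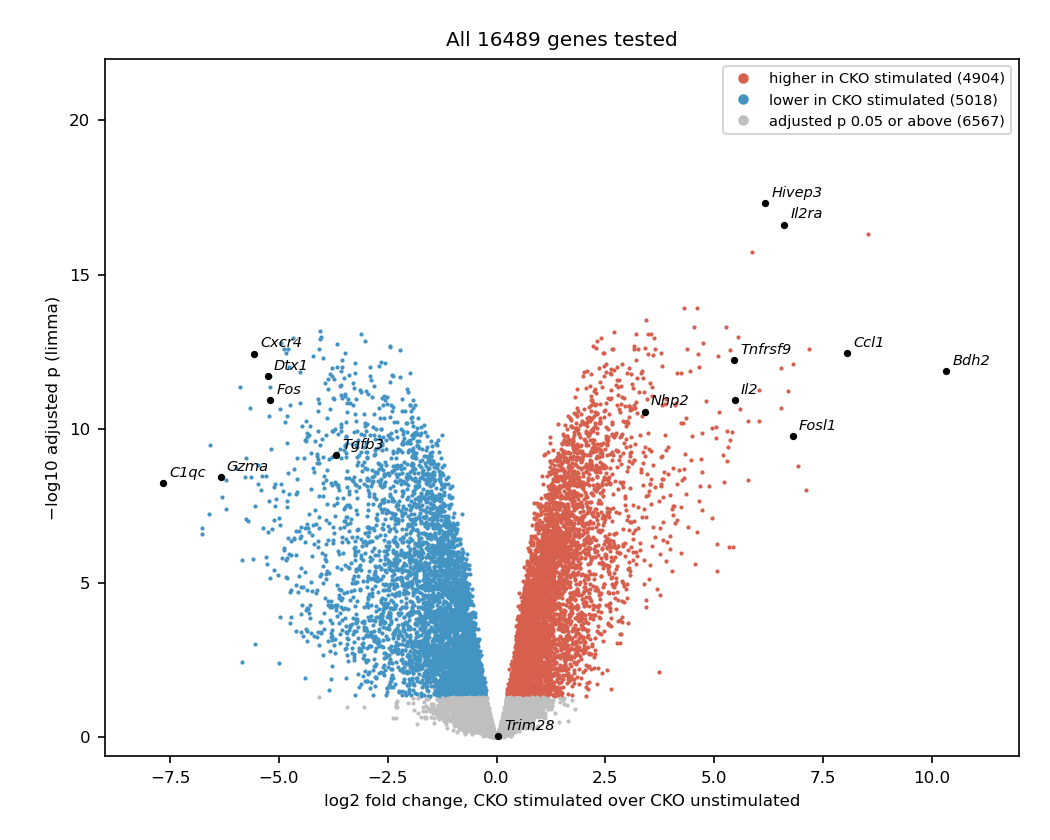
Log2 fold change of CKO stimulated over CKO unstimulated cells (horizontal) against −log10 of the adjusted p from limma (vertical) for 16489 genes, with a few named. The 4904 genes that rose and the 5018 that fell form wings of similar size, and Trim28 lies at the base with a log2 fold change of 0.03.

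Interleukin 2 and its receptor rose. Il2, the T cell growth factor, had a scaled signal of 89, 65.9, 69.9 and 168 in CKO stimulated arrays, against 2.71, 1.6, 1.7 and 2.37 in CKO unstimulated arrays. It was not well above background on any CKO unstimulated array, so stimulated cells carried at least 30.4-fold more (adjusted p = 1.15e-11), where such a bound sets the measured mean against the lowest signal that counted as above background on each array of the dimmer group. Setting all signals to a common floor, the highest of these lowest signals over the 24 arrays and one that came from a CKO regulatory T cell array, leaves less room below a dim gene, and calls lost there are given beside the gene. Each bound holds only for the processing used. Over the alternatives the log2 fold change was as low as 2.08 for Il2. Il2ra, its high-affinity receptor chain CD25, had 1124, 926, 983 and 866 in CKO stimulated arrays, against 11.6, 10.1, 7.98 and 10.2 in CKO unstimulated arrays (log2 fold change 6.62 ± 0.16, adjusted p = 2.39e-17), and no array of one group came near the other. CD25 on the surface was used to choose the cells, so the level before stimulation is not independent of the gate. The plot of single genes by array shows both.

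**Figure D3:**
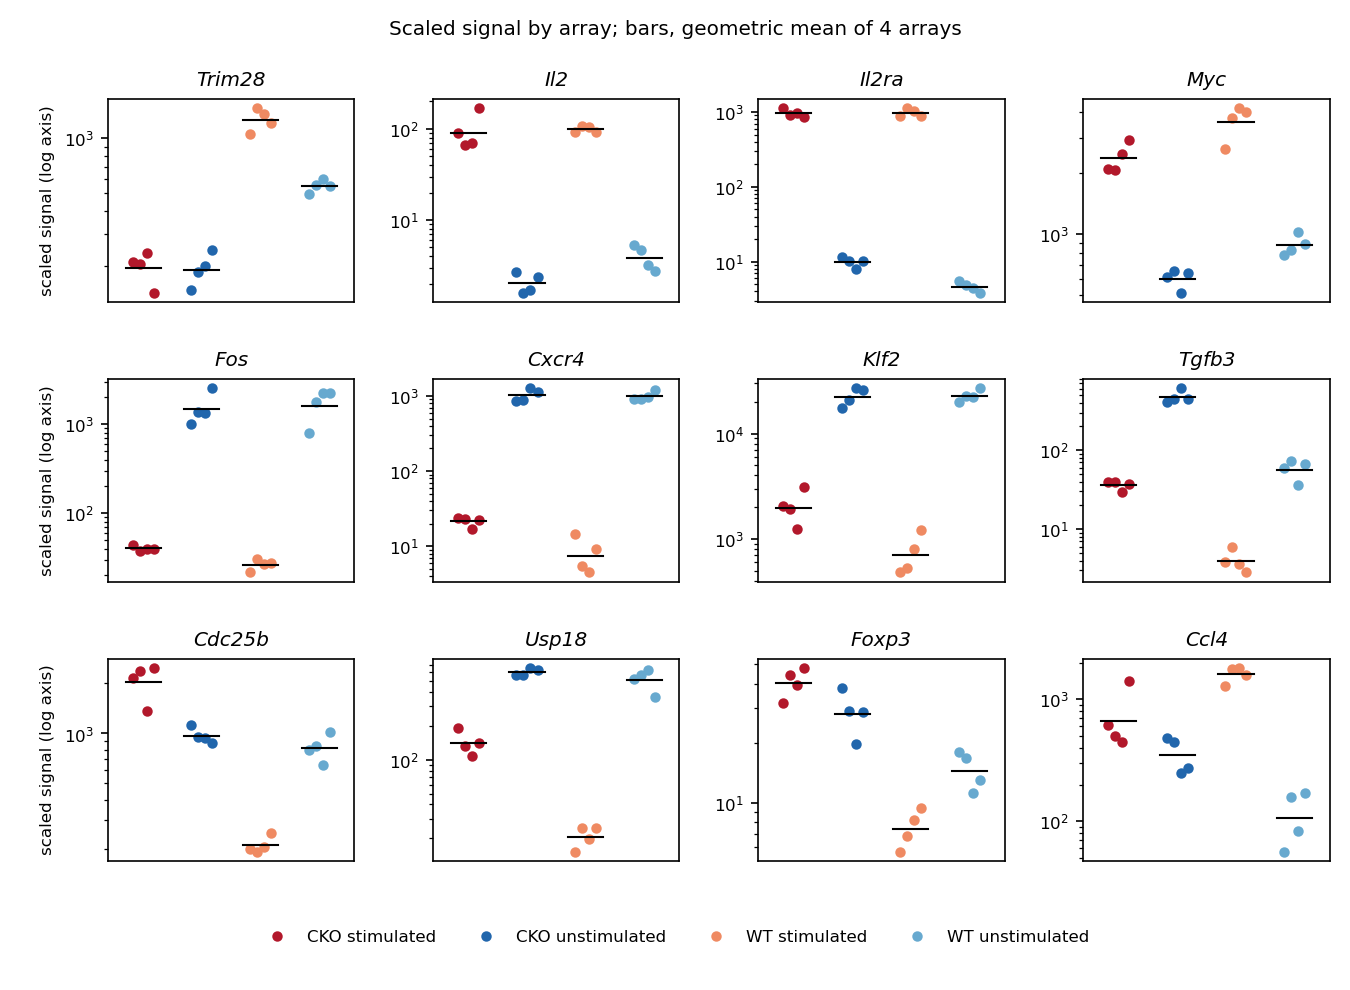
Scaled signal (log axis) of 12 genes in each array, with CKO stimulated, CKO unstimulated, WT stimulated and WT unstimulated cells from left to right and a bar at the geometric mean of 4 arrays. Il2, Il2ra and Myc are higher and Fos, Cxcr4, Klf2, Tgfb3 and Usp18 lower on all 4 CKO stimulated arrays than on any CKO unstimulated array, while Trim28 overlaps between them.

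The proximal promoter of Il2 is printed here because this gene is a textbook target of NFAT. The RefSeq promoter table (build GRCm38.p6) gives 250 bases before to 50 bases after the start of each gene, and held an entry for 10288 of the 16489 genes tested. The letters GGAAAA, the core that NFAT binds, were searched on both strands and stand in capitals. They begin 137 and 48 bases before the start, the one nearer the start on the opposite strand. The Il2 entry lies at chr3:37125905-37126204, minus strand.
Il2: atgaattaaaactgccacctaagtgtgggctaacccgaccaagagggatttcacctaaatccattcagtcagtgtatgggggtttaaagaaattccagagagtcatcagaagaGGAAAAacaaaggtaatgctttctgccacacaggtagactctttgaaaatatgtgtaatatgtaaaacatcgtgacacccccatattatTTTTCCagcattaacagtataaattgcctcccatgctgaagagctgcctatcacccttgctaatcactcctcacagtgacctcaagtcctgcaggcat
The same letters occur in 20.7% of the 10288 promoters, so their presence in 1 promoter is common. Among 20 cytokine and chemokine genes with a promoter entry, 7 (35%) held them. They were in 3 of the 10 that rose (30%), a share no higher than over the list, and in none of the 3 that fell.

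Cytokine and chemokine genes split. Of 26 tested, 11 rose and 6 fell, with a median log2 fold change of 0.25; 10 fell when CKO stimulated replicate 4 was left out. Ccl1, a chemokine for CCR8, had 289.9, 121, 154 and 386 in CKO stimulated arrays, against 1.07, 0.551, 0.803 and 0.894 in CKO unstimulated arrays and was at least 71.3-fold higher (adjusted p = 3.43e-13). Xcl1, lymphotactin, had 4226, 2572, 2220 and 4881 in CKO stimulated arrays, against 122, 131, 56.5 and 65 in CKO unstimulated arrays (log2 fold change 5.24 ± 0.47, adjusted p = 5.29e-09). Csf2, which encodes GM-CSF, was at least 6.11-fold higher and Il3 at least 3.24-fold higher, both from below background, with adjusted p-values of 3.17e-08 and 3.02e-07. With the common floor neither passed (adjusted p = 0.104 for Csf2 and 0.166 for Il3), and Il3 did not pass after normexp (0.172). Ifng, the interferon of type 1 helper cells, went the other way, at 110.1, 49.5, 54 and 142 in CKO stimulated arrays, against 340, 351, 128 and 200.4 in CKO unstimulated arrays (log2 fold change -1.55 ± 0.40, adjusted p = 0.00228), and the ranges overlapped. On slides 1 and 4 alone Ifng did not pass (adjusted p = 0.0917). The helper molecule Cd40lg (-1.95 ± 0.37 on the log2 scale) and the chemokine Ccl5 (-3.27 ± 0.48) also fell. Ifng and Ccl5 are genes of NK and CD8 T cells as well, whose markers were lower in the same arrays. The part of such cells in the falls of Ifng and Ccl5 was not tested.

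Receptors for cytokines fell more often than they rose. Of 29 receptors and STAT or JAK genes, 7 rose and 15 fell (median log2 fold change -0.43). Il7r, the receptor for the survival cytokine interleukin 7, had 75.6, 84.1, 70.8 and 82.9 in CKO stimulated arrays, against 1698, 1383, 1930 and 1472 in CKO unstimulated arrays (log2 fold change -4.36 ± 0.30, adjusted p = 1.32e-10). Il18r1 (-3.63 ± 0.47) and Ifngr2 (-3.05 ± 0.21), a chain of the interferon gamma receptor, fell. Il12rb1, part of the interleukin 12 receptor, rose by a log2 fold change of 2.99 ± 0.20.

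Receptors of costimulation and of inhibition rose side by side. Of 25 tested, 16 rose and 7 fell, with a median log2 fold change of 0.74. Tnfrsf9, the costimulatory receptor 4-1BB, had 1195, 1481, 1144 and 1834 in CKO stimulated arrays, against 31.5, 30.3, 32.8 and 31.1 in CKO unstimulated arrays (log2 fold change 5.47 ± 0.26, adjusted p = 5.86e-13). Pdcd1, the inhibitory receptor PD-1, had 4254, 3974, 3369 and 4730 in CKO stimulated arrays, against 174, 141, 186 and 168 in CKO unstimulated arrays (log2 fold change 4.61 ± 0.16, adjusted p = 1.19e-14), and its ligand gene Pdcd1lg2 rose by 5.09 ± 0.24 on the same scale. Lag3 (3.86 ± 0.33), Slamf1 (3.16 ± 0.14) and Tnfrsf4, which encodes OX40 (2.95 ± 0.18), rose as well. Ctla4, the inhibitory competitor of CD28, fell (log2 fold change -1.05 ± 0.28). After normexp background correction the calls of Ctla4 and Cd40lg were lost. Cd69, an early activation marker, was high in both groups and lower after stimulation, at 1542, 1265, 1254 and 1398 in CKO stimulated arrays, against 1889, 1858, 2159 and 2582 in CKO unstimulated arrays (log2 fold change -0.63 ± 0.15, adjusted p = 0.0013); on slides 1 and 4 alone it no longer passed (adjusted p = 0.0907).

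The fast transcription factors divided evenly. Of 33 early response genes, 15 rose and 15 fell. Fosl1, an AP-1 subunit, had 162, 177, 234 and 162 in CKO stimulated arrays, against 1.01, 1.47, 2.1 and 2.2 in CKO unstimulated arrays and was at least 60.5-fold higher (adjusted p = 1.69e-10). Myc, the regulator of growth, had 2090, 2064, 2474 and 2920 in CKO stimulated arrays, against 613, 651, 512 and 636 in CKO unstimulated arrays (log2 fold change 1.98 ± 0.15, adjusted p = 5.14e-10), Irf4 rose by a log2 fold change of 2.98 ± 0.21 and Egr2 by 2.43 ± 0.13. Fos and Jun, also AP-1 subunits, fell. Fos had 43.7, 37.6, 39.2 and 39.9 in CKO stimulated arrays, against 1007, 1361, 1343 and 2555 in CKO unstimulated arrays (log2 fold change -5.20 ± 0.30, adjusted p = 1.13e-11). Jun had 40, 33.6, 38.6 and 50.1 in CKO stimulated arrays, against 852, 958, 1298 and 1359 in CKO unstimulated arrays (log2 fold change -4.77 ± 0.24, adjusted p = 1.01e-12). Fosb fell (-4.50 ± 0.51) and Tnfaip3, the NF-κB inhibitor A20, (-4.06 ± 0.17), so the unstimulated cells held the higher levels of all 4. Npas4, an activity-induced factor known from neurons, was at least 34.7-fold higher after stimulation (adjusted p = 1.63e-09). Over the alternatives the log2 fold change of Npas4 was as low as 2.33. The median of this list was 0.31, and it took the opposite sign when CKO unstimulated replicate 1 was left out (-0.09).

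Inhibitors of signalling were similarly divided. Of 27 genes that restrain MAP kinases, the receptor or cytokine signals, 10 rose and 13 fell. Rgs16, a regulator of G protein signalling, had 2413, 2227, 2335 and 2057 in CKO stimulated arrays, against 50.3, 60.1, 72.1 and 84.6 in CKO unstimulated arrays (log2 fold change 5.10 ± 0.32, adjusted p = 2.73e-11), and Spry1, an inhibitor of the RAS pathway, rose by a log2 fold change of 4.38 ± 0.19. Dusp10, a phosphatase for JNK and p38, fell (-4.30 ± 0.30), Socs3 (-4.29 ± 0.29) and Rgs2 (-3.84 ± 0.20).

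The genes that build ribosomes rose almost as one. Of 47 ribosome biogenesis genes tested, 46 rose and none fell, against 29.7% and 30.4% of all genes, with a median log2 fold change of 2.21 against -0.08 for all genes. The median was 2.10 on slide 1 and 2.11 on slide 4. Nhp2, a protein of the H/ACA particles that modify ribosomal RNA, had 4308, 3367, 3671 and 3876 in CKO stimulated arrays, against 425, 348, 293 and 376 in CKO unstimulated arrays (log2 fold change 3.41 ± 0.21, adjusted p = 2.72e-11). Gar1 and Dkc1 of the same particle rose by log2 fold changes of 3.55 ± 0.27 and 2.88 ± 0.20, and the assembly factors Nop16 and Mrto4 by 3.30 ± 0.23 and 3.05 ± 0.18. The proteins of the cytosolic ribosome itself stood apart from these: of 50, 11 rose and 1 fell, with a median of 0.13. Rpl14 rose by 1.19 ± 0.21 and Rps27 fell (-0.78 ± 0.25). That small median changed sign with the scaling (-0.04 when arrays were scaled on probes above background everywhere and -0.03 after normexp background correction), and 11 fell without CKO stimulated replicate 4, while 6 rose without CKO stimulated replicate 1, CKO unstimulated replicate 2 or CKO unstimulated replicate 3.

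Nop2, a methyltransferase for ribosomal RNA, rose by a log2 fold change of 2.83 ± 0.20 (adjusted p = 1.81e-10) and is shown as a member of this list whose promoter holds the E-box CACGTG, the letters bound by MYC with MAX and by other factors of that class. The motif reads the same on both strands and stands in capitals, and the entry lies at chr6:125131633-125131932, plus strand.
Nop2: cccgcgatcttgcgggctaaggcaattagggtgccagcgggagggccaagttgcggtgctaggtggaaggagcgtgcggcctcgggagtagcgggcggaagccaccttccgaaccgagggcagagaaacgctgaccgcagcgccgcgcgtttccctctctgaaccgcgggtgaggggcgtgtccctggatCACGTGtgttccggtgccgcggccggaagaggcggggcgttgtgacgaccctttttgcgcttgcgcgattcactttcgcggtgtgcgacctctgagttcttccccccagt
Of 42 ribosome biogenesis genes with a promoter entry, 9 (21.4%) held the motif, against 10% of the 10288 promoters.

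Other machinery of growth rose with it. All 32 proteasome genes tested rose (median log2 fold change 1.62), as did 34 of 36 genes of the mitochondrial ribosome (median 1.32), 18 of 20 aminoacyl-tRNA synthetases (median 1.51) and 25 of 29 chaperones (median 1.24), and none of these 4 lists had a member that fell. Psmd1, a subunit of the proteasome's cap, had 1025, 907, 870.5 and 867 in CKO stimulated arrays, against 187, 161, 136 and 182 in CKO unstimulated arrays (log2 fold change 2.47 ± 0.15, adjusted p = 2.65e-11). Psmc2 rose by 2.00 ± 0.15 on the probe used, but its second probe gave -0.06. Mrpl12 (2.33 ± 0.25) and Mrps18b (3.19 ± 0.36, 1.11 on a second probe) stand for the mitochondrial ribosome and the lysyl-tRNA synthetase Kars (2.28 ± 0.19) for its list. Hspd1, the mitochondrial chaperonin HSP60, had 15970, 14400, 12690 and 16540 in CKO stimulated arrays, against 1813, 1906, 2115 and 3216 in CKO unstimulated arrays (log2 fold change 2.75 ± 0.21, adjusted p = 4.87e-10).

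Enzymes of biosynthesis rose. Of 25 genes of serine, one-carbon, polyamine and nucleotide synthesis, 22 rose and none fell, with a median log2 fold change of 2.27. Shmt1, the cytosolic serine hydroxymethyltransferase, had 259.7, 220.3, 259 and 209 in CKO stimulated arrays, against 6.08, 5.17, 4.75 and 8.98 in CKO unstimulated arrays (log2 fold change 5.29 ± 0.20, adjusted p = 4.87e-14, 2.51 on a second probe). Srm, spermidine synthase, had 6037, 5656, 5992 and 6968 in CKO stimulated arrays, against 547, 409, 342 and 525 in CKO unstimulated arrays (log2 fold change 3.78 ± 0.17, adjusted p = 3.43e-13), and Cad, the first enzyme of pyrimidine synthesis, rose by a log2 fold change of 2.86 ± 0.17. Mthfd1 (2.79 ± 0.15) of the folate cycle and the nucleoside diphosphate kinase Nme1 (2.76 ± 0.21) followed.

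Of 15 transporters of amino acids, glucose and iron, 11 rose and 2 fell (median 1.51). Slc7a5, which carries large neutral amino acids, rose by a log2 fold change of 2.09 ± 0.23 and the transferrin receptor Tfrc by 2.25 ± 0.30. In sterol and fatty acid synthesis 17 of 29 genes rose and 5 fell (median 1.17). Idi1, isopentenyl diphosphate isomerase, had 1543, 1222, 961 and 1464 in CKO stimulated arrays, against 132, 82.9, 93.5 and 125 in CKO unstimulated arrays (log2 fold change 3.58 ± 0.20, adjusted p = 4.35e-12). The desaturase Scd1 fell (-4.13 ± 0.66), to scaled signals of only 0.896 to 4.01 in CKO stimulated arrays. Over the alternatives the log2 fold change of Scd1 was as small as -1.11.

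Glycolysis was less uniform, with 9 of 20 genes higher and 4 lower and a median of 0.26. Hk2, the hexokinase induced in growing cells, had 375, 380.3, 332 and 489 in CKO stimulated arrays, against 14, 20.8, 12.4 and 12 in CKO unstimulated arrays (log2 fold change 4.76 ± 0.20, adjusted p = 1.63e-13), and Tpi1 rose by a log2 fold change of 2.95 ± 0.19. Pdk1, which restrains entry of pyruvate into the citric acid cycle, fell (-2.15 ± 0.15).

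**Figure D4:**
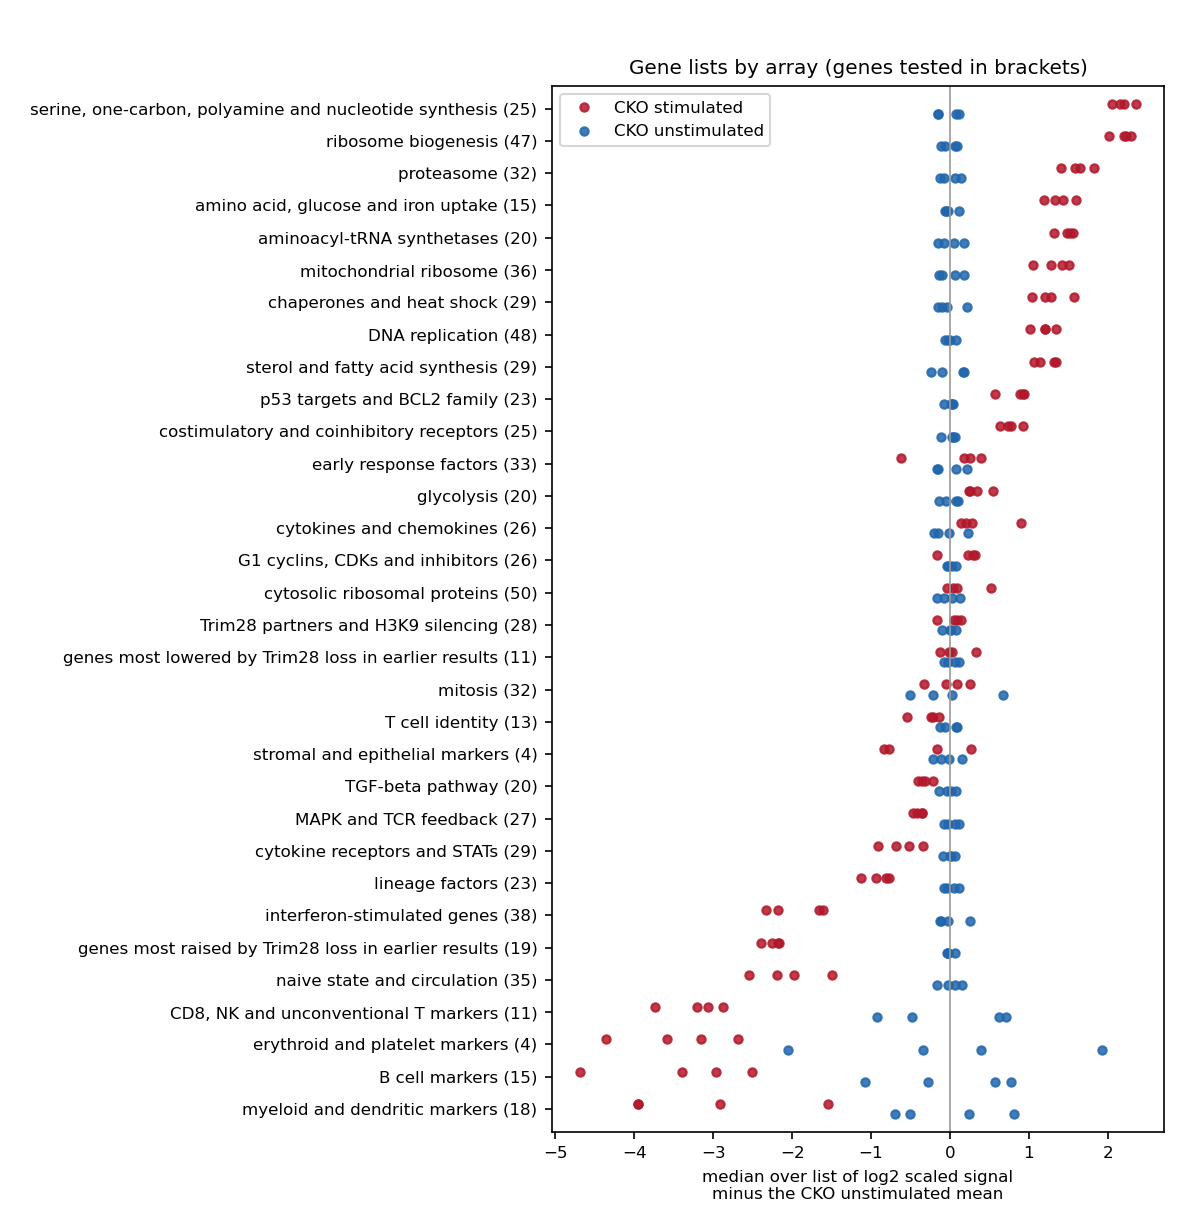
Median over each gene list of the log2 scaled signal minus the mean of the CKO unstimulated arrays (horizontal), 1 point per array, for 32 lists with CKO stimulated points drawn above CKO unstimulated points. Ribosome biogenesis genes lie between 2.02 and 2.29 on the CKO stimulated arrays and -0.11 and 0.09 on the CKO unstimulated arrays, and interferon-stimulated genes between -2.33 and -1.61 on the CKO stimulated arrays and -0.13 and 0.26 on the CKO unstimulated arrays.

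Genes of DNA replication rose, and those of mitosis did not move as a list. Of 48 DNA replication genes, 38 rose and 2 fell, with a median log2 fold change of 1.18. Mcm5, a subunit of the replicative helicase, had 2390, 2070, 1881 and 2167 in CKO stimulated arrays, against 432, 411, 384 and 399.6 in CKO unstimulated arrays (log2 fold change 2.38 ± 0.13, adjusted p = 2.99e-12). Chaf1a, of the chromatin assembly factor that follows the fork, had 125, 102, 102 and 60.1 in CKO stimulated arrays, against 5.7, 13.2, 10.8 and 9.16 in CKO unstimulated arrays (log2 fold change 3.34 ± 0.36, adjusted p = 6.97e-08), whereas its partner Chaf1b fell (-1.32 ± 0.16). Gins2 (3.25 ± 0.37) and Mcm10 (2.75 ± 0.39) rose, and Orc1, of the origin recognition complex, was at least 4.69-fold higher from below background (adjusted p = 1.22e-09). The call of Orc1 was lost with the common floor (adjusted p = 0.369) and after normexp (0.136). Tk1, thymidine kinase, did not pass the test (log2 fold change 0.29 ± 0.30, adjusted p = 0.415).

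Of 32 mitosis genes, 5 rose, 6 fell and 21 did not pass, with a median of -0.02. Mki67, the proliferation marker, had 42.8, 49.5, 39.1 and 40.2 in CKO stimulated arrays, against 106, 212, 91.4 and 68.9 in CKO unstimulated arrays (log2 fold change -1.35 ± 0.38, adjusted p = 0.00387), and Kif23 (-2.09 ± 0.30) and Prc1 (-1.16 ± 0.31), both of the central spindle, fell. The checkpoint kinase Bub1b rose by 1.17 ± 0.34. After normexp background correction Kif23, Prc1 and Bub1b no longer passed. The mitotic kinase Cdk1 had 5.92, 5.38, 3.58 and 2.85 in CKO stimulated arrays, against 1.8, 3.98, 1.99 and 0.766 in CKO unstimulated arrays, above background on 3 and 1 of them, and did not pass (adjusted p = 0.068). It passed in 10 of 23 alternatives, among them the slide block (adjusted p = 0.00394) and quantile normalization (0.0453).

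Among 26 G1 regulators 11 rose and 8 fell. The kinase Cdk4 had 684, 539.6, 617 and 428 in CKO stimulated arrays, against 81.5, 74.6, 62.4 and 86.3 in CKO unstimulated arrays (log2 fold change 2.88 ± 0.26, adjusted p = 5.90e-09). Of the inhibitors, Cdkn1b (p27) fell (log2 fold change -2.29 ± 0.15) and Cdkn2d (p19) (-3.51 ± 0.18), while Cdkn1a (p21) rose, at 788, 729, 743 and 977 in CKO stimulated arrays, against 33.7, 37.1, 50 and 53.3 in CKO unstimulated arrays (log2 fold change 4.23 ± 0.28, adjusted p = 6.21e-11). E2f2 fell (-2.53 ± 0.32).

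The Mcm5 promoter is shown because several helicase subunits rose together and E2F is their known regulator. The E2F letters TTTGGCGC and TTTCCCGC were searched on both strands. The match, in capitals, is on the opposite strand and begins 149 bases before the start, in the entry at chr8:75109259-75109558, plus strand.
Mcm5: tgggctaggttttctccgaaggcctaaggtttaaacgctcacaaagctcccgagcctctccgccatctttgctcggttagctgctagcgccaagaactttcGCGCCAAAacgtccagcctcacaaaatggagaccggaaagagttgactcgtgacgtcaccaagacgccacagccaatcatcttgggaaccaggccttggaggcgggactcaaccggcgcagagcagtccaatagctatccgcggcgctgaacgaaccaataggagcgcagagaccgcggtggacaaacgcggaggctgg
Such letters stood in 12 of 40 replication genes with a promoter entry (30%), against 2.95% of the 10288 promoters. They were in 10 of the 32 that rose (31.2%), near the share of the whole list, and in neither of the 2 that fell. Members that did not pass also held them, among them Gins3 (log2 fold change 0.1).

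Genes of the naive and circulating state fell. Of 35 tested, 30 fell and 4 rose, with a median log2 fold change of -2.16 (-1.94 on slide 1 and -2.68 on slide 4). Klf2, which maintains quiescence and homing receptors, had 2064, 1916, 1232 and 3092 in CKO stimulated arrays, against 17490, 20770, 27020 and 25800 in CKO unstimulated arrays (log2 fold change -3.51 ± 0.27, adjusted p = 4.76e-10), but its second probe gave only -0.39. Cxcr4, a chemokine receptor for tissue retention, had 23.5, 23.3, 17.1 and 22.5 in CKO stimulated arrays, against 855, 877, 1277 and 1142 in CKO unstimulated arrays (log2 fold change -5.58 ± 0.26, adjusted p = 3.58e-13). S1pr1, which lets cells leave lymph nodes, fell (-3.22 ± 0.29), Tsc22d3 (GILZ) (-4.67 ± 0.19), Klf6 (-4.21 ± 0.20), Txnip (-2.67 ± 0.27) and Igfbp4 (-4.50 ± 0.53) (-1.67 on a second probe).

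Interferon-stimulated genes were lower as a group. Of 38 tested, 29 fell, none rose and 9 did not pass, with a median of -1.90. The summed signal of myeloid markers, cells that also express such genes, was 1530 to 15000 in CKO stimulated arrays and 6450 to 36000 in CKO unstimulated arrays, and its part in this fall was not tested. Isg15, a ubiquitin-like protein, had 74.5, 34.1, 35.5 and 48.1 in CKO stimulated arrays, against 205, 243, 311 and 301 in CKO unstimulated arrays (log2 fold change -2.52 ± 0.34, adjusted p = 1.66e-06). Ddx58, which encodes the RNA sensor RIG-I, had 110, 113, 65.1 and 150.4 in CKO stimulated arrays, against 1986, 1744, 1883 and 1664 in CKO unstimulated arrays (log2 fold change -4.11 ± 0.25, adjusted p = 2.59e-11). Oas2, above background on 2 of 4 CKO stimulated arrays, fell (-5.63 ± 0.49), Mx2 (-3.93 ± 0.43), Samd9l (-3.47 ± 0.24) and the factor Irf7 (-3.20 ± 0.25).

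Paired half-sites for interferon regulatory factors, GAAA followed after any 2 bases by GAAA, on either strand, overlap 3 times in the Isg15 promoter, and the joined stretch is in capitals. It begins 78 bases before the start, in the entry at chr4:156200769-156201068, minus strand.
Isg15: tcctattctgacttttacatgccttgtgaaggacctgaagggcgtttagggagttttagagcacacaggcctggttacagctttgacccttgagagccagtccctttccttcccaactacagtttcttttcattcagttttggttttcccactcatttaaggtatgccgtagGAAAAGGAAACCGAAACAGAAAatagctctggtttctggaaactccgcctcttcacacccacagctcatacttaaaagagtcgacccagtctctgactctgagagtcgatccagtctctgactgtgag
This motif stood in 16 of 29 interferon-stimulated genes with a promoter entry (55.2%) and in 3.08% of the 10288 promoters. Of the 20 that fell, 10 (50%) held it, a share no higher than over the list, so members without the motif fell too. Members that did not pass also held it, among them Igtp, Irgm1, Gbp2 and Gbp3.

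Lineage factors of helper T cells were mostly lower. Of 23 tested, 5 rose and 13 fell (median -0.94). Gata3, the type 2 factor, had 165, 124, 128 and 181 in CKO stimulated arrays, against 652, 554, 731 and 789 in CKO unstimulated arrays (log2 fold change -2.19 ± 0.15, adjusted p = 9.85e-11). Eomes, a factor of cytotoxic cells, fell (-3.63 ± 0.61), and so did Runx3 (-2.14 ± 0.20) and Prdm1 (-2.90 ± 0.20), the last above background on 2 of 4 CKO stimulated arrays and not called after normexp (adjusted p = 0.139). Tbx21, the type 1 factor T-bet, did not pass (log2 fold change -1.02 ± 0.45, adjusted p = 0.0572). Foxp3, the factor of regulatory T cells, had 31.9, 44.1, 39.2 and 48 in CKO stimulated arrays, against 38.2, 29.3, 19.8 and 28.7 in CKO unstimulated arrays (log2 fold change 0.51 ± 0.20, adjusted p = 0.0321). The slides that held both groups differed in sign, at -0.26 on slide 1 and 0.98 on slide 4. The call was lost in 11 of 24 alternatives, among them slides 1 and 4 alone (adjusted p = 0.484), normexp (0.424), scaling on probes above background everywhere (0.138) and the slide block (0.0972). It was also lost without CKO stimulated replicate 2 (adjusted p = 0.0761), CKO stimulated replicate 4 (0.0924), CKO unstimulated replicate 3 (0.147) or CKO unstimulated replicate 4 (0.0511).

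In the TGF-β pathway 5 of 20 genes rose and 10 fell; 3 rose without CKO stimulated replicate 4 or CKO unstimulated replicate 1. Tgfb3, a ligand, had 39.2, 39.3, 29.9 and 37.8 in CKO stimulated arrays, against 414, 441, 614 and 440.4 in CKO unstimulated arrays (log2 fold change -3.70 ± 0.29, adjusted p = 7.05e-10), and was above background on all 8. In WT cells it had 3.89, 5.92, 3.62 and 2.84 in WT stimulated arrays and 59.8, 72.3, 35.8 and 66 in WT unstimulated arrays. The inhibitory Smad7 fell (log2 fold change -2.57 ± 0.15), the ubiquitin ligase Smurf2 (-1.56 ± 0.21) and the coreceptor Tgfbr3 (-2.33 ± 0.28), whose call was lost after normexp (adjusted p = 0.361) and with the common floor (0.227). Pmepa1, a target that dampens the pathway, rose by 3.52 ± 0.32.

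Partners of Trim28 and of H3K9 silencing moved in both directions, 9 of 28 (32.1%) up and 9 (32.1%) down. These shares were near those of all genes, 29.7% higher and 30.4% lower, and the list's median log2 fold change was 0.06. Setdb1, the methyltransferase that Trim28 recruits, had 128, 98.6, 131 and 85 in CKO stimulated arrays, against 26.6, 25.6, 28.7 and 36.5 in CKO unstimulated arrays (log2 fold change 1.91 ± 0.21, adjusted p = 9.19e-08). Uhrf1, which guides maintenance methylation of DNA, rose by 2.46 ± 0.24. Trim24, a protein that forms complexes with Trim28, had 1486, 1472, 1103 and 1161 in CKO stimulated arrays, against 5551, 4541, 5647 and 5990 in CKO unstimulated arrays (log2 fold change -2.06 ± 0.14, adjusted p = 6.44e-11). In WT cells its log2 fold change was -0.03.

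Genes of the p53 response and the BCL2 family also divided, with 12 of 23 higher and 7 lower (median 0.92). The survival gene Bcl2l1 (BCL-XL) had 457, 408, 517 and 655 in CKO stimulated arrays, against 96, 85.1, 86.5 and 99.7 in CKO unstimulated arrays (log2 fold change 2.45 ± 0.18, adjusted p = 2.84e-10). Phlda3 rose by 2.62 ± 0.33, Gadd45a fell (-3.68 ± 0.16) and the BH3-only gene Bmf (-2.32 ± 0.55).

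The largest rises among genes above background in both groups held, beside Il2ra, Tnfrsf9, Shmt1, Xcl1, Rgs16, Pdcd1lg2 and Hk2, a set of genes from outside the fixed lists. Hivep3, a large zinc finger protein, had 4220, 4600, 5097 and 5029 in CKO stimulated arrays, against 63.4, 64.5, 59.1 and 75.1 in CKO unstimulated arrays (log2 fold change 6.18 ± 0.13, adjusted p = 4.83e-18), and Adarb1, an RNA-editing deaminase, rose by a log2 fold change of 5.88 ± 0.16. Tg, which encodes thyroglobulin, had 443, 415, 301 and 391 in CKO stimulated arrays, against 10.9, 7.58, 8.43 and 6.62 in CKO unstimulated arrays (log2 fold change 5.54 ± 0.23, adjusted p = 1.03e-13). Akr1c18, a steroid dehydrogenase, rose by 5.34 ± 0.67 and the adhesion molecule Alcam by 4.73 ± 0.40. Psrc1 rose by 5.06 ± 0.34, Syngr1 by 4.88 ± 0.44 and Zbed5 by 4.81 ± 0.28. Over the alternatives the log2 fold change was as low as 2.54 for Akr1c18, 2.53 for Syngr1 and 2.1 for Zbed5.

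A further 238 called genes were above background on at least 3 CKO stimulated arrays and on no CKO unstimulated array. Bdh2, a short-chain dehydrogenase, had the largest bound, with 1585, 1022, 935 and 1852 in CKO stimulated arrays, against 1.97, 0.748, 1.11 and 0.608 in CKO unstimulated arrays, at least 431-fold (adjusted p = 1.36e-12). This bound too holds only for the processing used. Over the alternatives the log2 fold change was as low as 5.55 for Bdh2, 3.02 for Ccl1 and 2.82 for Fosl1. On the probe used and in the main processing, Dixdc1 was at least 29.6-fold, A1cf at least 28.1-fold and the kinesin Kif15 at least 21.2-fold higher. The second probes of Dixdc1 and A1cf gave log2 fold changes of 2.34 and 2.68, below these bounds. Over the alternatives the log2 fold change was as low as 2.25 for Dixdc1, 2.06 for A1cf and 1.73 for Kif15.

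Of the 15 largest falls among genes above background in both groups, 9 were genes of NK, B or dendritic cells: Gzma, given above, Klrb1a (-5.71 ± 0.62), Klrb1c (-5.29 ± 0.46) and Klra21 (-5.13 ± 0.73) of NK cells, and Bank1 (-5.08 ± 0.49), Fcmr (-5.09 ± 0.51), Jchain (-4.98 ± 0.95) and Igh-VJ558 (-5.56 ± 1.30) of B cells, beside the integrin Itgax of dendritic cells (-5.12 ± 0.55). The Klra genes are near-identical copies whose probes may cross-hybridise, and the other probes of Igh-VJ558 ranged from -4.94 to -0.63. Their falls stand beside the fall of the marker sums, of which these genes are in part members. Over the alternatives the log2 fold change was as small as -1.95 for Itgax, -2.23 for Bank1, -2.31 for Klrb1c and -2.38 for Klra21. Dtx1, a Notch-pathway ligase, had 156, 169, 86 and 212 in CKO stimulated arrays, against 7044, 4609, 4135 and 7764 in CKO unstimulated arrays (log2 fold change -5.26 ± 0.27, adjusted p = 1.97e-12). Klf4, a factor of quiescence, had 65.2, 69, 54.9 and 90.1 in CKO stimulated arrays, against 1392, 2191, 3111 and 4146 in CKO unstimulated arrays (log2 fold change -5.19 ± 0.39, adjusted p = 4.43e-10), and Drc1, known from motile cilia, fell (-5.39 ± 0.47).

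In 300 called genes the signal was above background on at least 3 CKO unstimulated arrays and on no CKO stimulated array. The acyltransferase gene Mogat1 (1.76 to 2.97 in CKO stimulated arrays and 94.6 to 166 in CKO unstimulated arrays) was at least 54.3-fold lower (adjusted p = 4.35e-12) and Ggt1 at least 24.4-fold lower. Lbp, a binding protein for lipopolysaccharide, was at least 34.3-fold lower. The remaining top members were Vcam1, C1qc, Klra23, Klra9 and Klra1. Vcam1 and C1qc, genes of stromal cells and macrophages, were at least 48.5-fold and 46.9-fold lower. Klra23, Klra9 and Klra1 of NK cells were at least 46.4-fold, 36.5-fold and 22.8-fold lower. These bounds hold only for the processing used. Over the alternatives the log2 fold change was as small as -2.19 for Mogat1, -1.28 for Ggt1, -1.88 for Lbp and -2.18 for Vcam1. It was as small as -2.32 for C1qc, -2.1 for Klra23, -1.83 for Klra9 and -1.47 for Klra1.

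How the response depended on Trim28 was tested as the difference between the CKO and the WT response, which share no array. Of 16489 genes, 564 (3.42%) passed, 350 with a higher and 214 with a lower value in CKO cells. The count depended on single arrays, falling to 360 without CKO stimulated replicate 1 and to 372 without CKO unstimulated replicate 2, and on background correction: 71 passed after normexp, of which 30 were above and 41 below 0, a share above 0 of 42.3% in place of 62.1%. WT stimulation called 10202 genes.

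**Figure D5:**
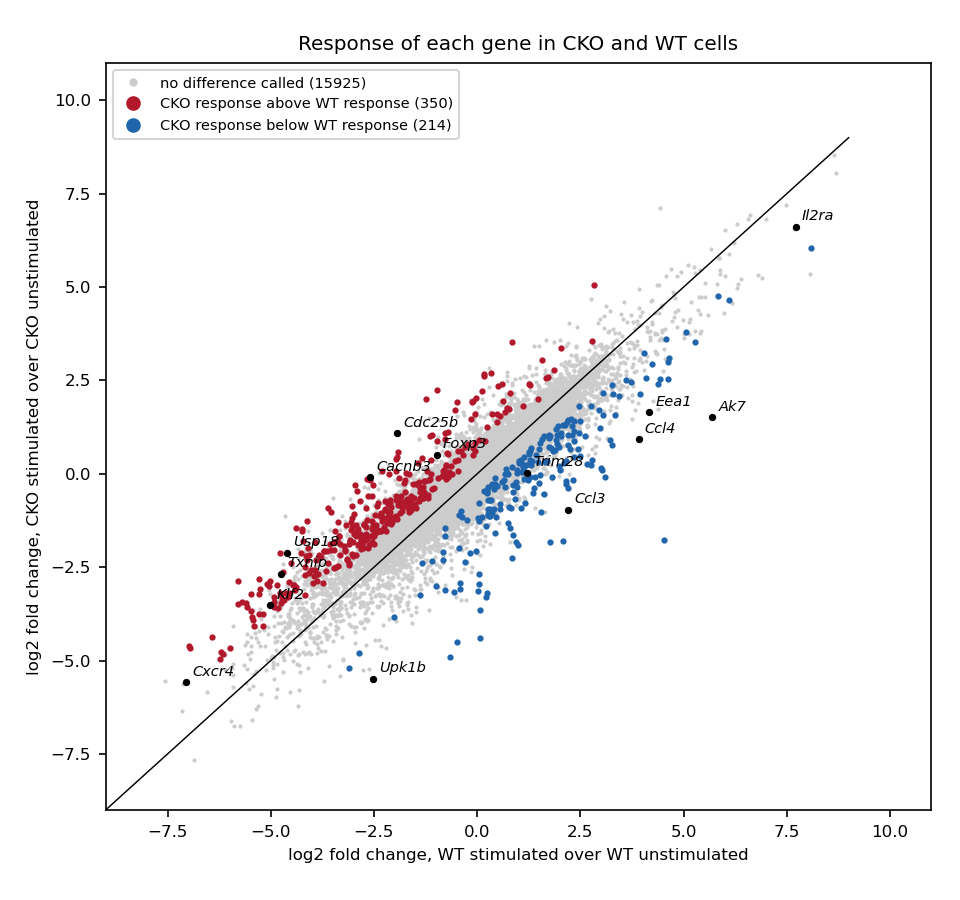
Log2 fold change with stimulation in WT cells (horizontal) and in CKO cells (vertical) for 16489 genes, with a line at equal response. Named genes are in black. Of all genes, 350 in red had a higher and 214 in blue a lower CKO response, and Cdc25b lies in the corner where the CKO value is above and the WT value below 0.

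Cdc25b, whose product switches on cyclin-dependent kinases, moved in opposite directions. It had 2169, 2391, 1371 and 2487 in CKO stimulated arrays, against 1126, 949.9, 936 and 875 in CKO unstimulated arrays (log2 fold change 1.08 ± 0.18, adjusted p = 3.26e-05), and 200.5, 193, 207 and 250.4 in WT stimulated arrays against 793, 841, 641 and 1022 in WT unstimulated arrays. The difference of the responses was 3.03 ± 0.26, adjusted p = 1.42e-06. The ranges of the CKO and WT unstimulated arrays overlapped and those of the stimulated arrays did not. Usp18, a deconjugase for ISG15, fell in CKO cells to 189.7, 133, 107 and 139, against 564, 559, 655 and 631 in CKO unstimulated cells, and in WT cells to 15.1, 24.9, 19.8 and 24.7, against 515, 564, 621 and 363 in WT unstimulated cells (difference 2.5 ± 0.27, adjusted p = 1.14e-05). Pde2a, a phosphodiesterase, had a difference of 2.94 ± 0.27, adjusted p = 1.67e-06, with a fall of -1.44 ± 0.19 in CKO cells and a log2 fold change of -4.38 in WT cells. Ntrk3, Nrp2, Cacnb3 and Myo10 were also among the 8 largest, with differences of 2.87, 2.53, 2.51 and 2.45, though under normexp none of these 4 passed. Nrp2 and Cacnb3 did not change detectably in CKO cells (adjusted p = 0.792 and 0.833), while their WT log2 fold changes were -2.66 and -2.60.

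On the other side stood the chemokines Ccl3 and Ccl4. Ccl4 had 613, 501, 447 and 1411 in CKO stimulated arrays, against 482, 448, 249 and 274 in CKO unstimulated arrays, which did not pass (adjusted p = 0.101), and 1277, 1786, 1815 and 1588 in WT stimulated arrays against 56, 159, 83.8 and 172 in WT unstimulated arrays (difference -2.98 ± 0.68, adjusted p = 0.0162). For Ccl3 the difference was -3.16 ± 0.60, adjusted p = 0.00478. Both are also genes of NK cells. The summed signal of CD8, NK and unconventional T markers was 2170 to 4700 in CKO unstimulated and 1850 to 3040 in WT unstimulated arrays. These ranges overlap, as do those of the CKO stimulated (758 to 1210) and WT stimulated arrays (640 to 998). The part of such cells in the differences of Ccl3 and Ccl4 was not tested. The adenylate kinase Ak7 rose by 1.51 ± 0.19 in CKO and 5.69 in WT cells (difference -4.18 ± 0.27, adjusted p = 1.09e-08); it is among the genes raised by loss of Trim28 in earlier results. B4galt4 fell (-1.82 ± 0.23) in CKO cells, with 1.77 in WT cells (difference -3.59 ± 0.32, adjusted p = 1.64e-06). The endosomal tether Eea1 rose less in CKO cells (difference -2.52 ± 0.30, adjusted p = 4.84e-05), with log2 fold changes of 1.65 in CKO and 4.17 in WT cells.

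By list, DNA replication genes had a median of 1.18 in CKO and 1.94 in WT cells, and 14 of 48 had a lower response in CKO cells, none a higher one, against 3.42% of all genes called in either direction. Mcm5 (-0.88 ± 0.18, adjusted p = 0.00815) and Chaf1b (-2.07 ± 0.23, adjusted p = 1.42e-05) are examples. The mitosis list had a median of -0.02 in CKO and 0.97 in WT cells. Of 32 mitosis genes, 2 had a lower response in CKO cells. Naive state genes had medians of -2.16 in CKO and -2.71 in WT cells, and 15 of 35 had a higher response, here a smaller fall, in CKO cells, among them Il7r (2.07 ± 0.43, adjusted p = 0.00817), S1pr1 (2.26 ± 0.41, adjusted p = 0.0031) and Txnip (2.07 ± 0.38, adjusted p = 0.00311). Ribosome biogenesis genes had medians of 2.21 in CKO and 2.12 in WT cells and no member with a called difference. Of 38 interferon-stimulated genes, whose medians were -1.90 in CKO and -2.50 in WT cells, 5 had a higher response in CKO cells. Foxp3 had a response of 0.51 in CKO and -0.98 in WT cells (difference 1.49 ± 0.28, adjusted p = 0.0046), a difference that did not pass after normexp (adjusted p = 0.92) or with the common floor (0.139). After normexp the differences of Mcm5 (adjusted p = 0.246), Il7r (0.051) and S1pr1 (0.0549) did not pass either.

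Genes that earlier results of these data named as most raised by Trim28 loss were mostly lowered by stimulation of CKO cells: of 19, 12 fell and 5 rose (median -2.11). Of the 19, 7 had a lower and 4 a higher response in CKO than in WT cells, against 1.3% and 2.12% of all genes. That list was chosen on arrays that include these, so neither its direction nor these counts are independent evidence. Upk1b, a uroplakin, had 19.7, 12.7, 11.6 and 13.5 in CKO stimulated arrays, against 605, 677, 709.5 and 541 in CKO unstimulated arrays (log2 fold change -5.48 ± 0.45, adjusted p = 1.50e-09), and in WT cells it was not above background on any stimulated array. Cyp2s1, a cytochrome P450, had 392, 394, 286 and 597 in CKO stimulated arrays, against 6372, 6011, 5280 and 6582 in CKO unstimulated arrays (log2 fold change -3.91 ± 0.25, adjusted p = 4.38e-11), and Lix1 and the coagulation factor gene F12 fell (log2 fold changes -4.60 ± 0.53 and -3.77 ± 0.34). Of 11 named as most lowered, 5 rose and 5 fell. Spin4 was at least 15.8-fold higher from below background, and Penk, proenkephalin, rose by 2.99 ± 0.51. Over the alternatives the log2 fold change of Spin4 was as low as 1.58.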

How the data were processed

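Total RNA of 24 samples was hybridised to one-colour Agilent arrays (Cy3), 4 arrays a group in 6 groups. Per the file headers, the authors' scanner files were made with Feature Extraction 9.5.3.1 and hold each spot's deposited processed signal, a background-corrected intensity. A table of the authors' values, on a linear intensity scale with the same distribution in every column (median 13.49), agreed in rank with the scanner signals (rank correlation 1 for every array) and served as an alternative. The steps behind its normalization are not given in the sources used here.

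Control and outlier spots were left out, spots of a probe were averaged, and log2 values were computed from the deposited intensities and set relative to each array's 75th percentile. Kept were probes well above background on at least 3 of 4 arrays of a group (25198 of 41174), and the brightest kept probe of each gene was used (16489 genes, 2843 named only by accession). Levels are comparable within a probe, not between probes. A gene counted as above background on an array where any of its probes did, which need not be the probe whose fold is given. Limma 3.58.1 (R 4.3.3) was fitted to all 24 arrays with 6 group means. Values after ± are standard errors (log2 scale, n = 4 arrays a group), and p-values are two-sided and Benjamini-Hochberg adjusted over all genes. The fit was tested on simulated data with few changed genes and independent noise. That test cannot speak to normalization, slide or background correction. A minimum fold holds the dim group at the higher of its own signal and the lowest signal called above background on each array.

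Members and gene lists were chosen with earlier results of these data known. The named genes follow a fixed rule: 12 fixed genes, the 15 largest rises and 15 largest falls, up to 8 a direction by bound, up to 5 called members of each list by size, all called markers of other cells, and the 8 largest response differences each way. Part of these are printed, and some are not reported here. Myc, Irf4, Egr2, Mcm5, Tk1, Chaf1b, Cdk1, Isg15, Irf7, Cd40lg, Ccl5, S1pr1, Txnip, Ctla4 and Nop2 were added after their values were seen. Arrays of the same replicate number correlated in their deviations at 0.226, 0.379, 0.244 and 0.09. For CKO stimulated replicates 1, 2 and 3, but not 4, the best match was the CKO unstimulated array of the same number. Replicate 2 of the CKO groups lay on different slides. The replicates may thus share some structure, but the labels name no pairs and the numbers were not taken as pairs. Slide was the one technical batch taken from the file headers, and all scans fell on 1 day. Batches at other steps were not tested. Promoters are from RefSeq (GRCm38.p6), the first entry of each symbol. Alternatives were other normalizations, background corrections, filters, probe rules, sample subsets, blocks, age and leaving out each replicate. The regulatory T cell groups are not described here. The precision of each value is limited by the number of arrays.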

Additional observations from a re-analysis of the deposited data

Results flagged for a closer look

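Of 354 groups of 4 arrays, taken from the 177 named genes, 15 held 1 array that stood apart from the other 3 by Dixon's ratio. Chance gives this in about 1 in 20 groups, or about 18 of 354. Among CKO stimulated arrays, replicate 3 was lowest for Tgfb3 (scaled signal 29.9), Cxcr4 (17.1), Lag3 (322), B4galt4 (86.4) and Chaf1b (347), and replicate 4 was lowest for Cd3e (203) and Scd1 (0.896) and highest for Phlda3 (3760). Replicate 1 was highest for Ggt1 (2.03) and replicate 2 for Hba-a1 (24.4). Among CKO unstimulated arrays, replicate 3 was highest for Tgfb3 (614), replicate 1 was highest for Pdcd1lg2 (14) and lowest for Eea1 (91.9), and replicate 4 was highest for Kars (396) and Nop16 (107).

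The response differed between CKO and WT cells, by the fit's own term for that difference, for a further set of named genes. All values here are CKO response minus WT response on the log2 scale. Beside genes described above (Trim28 -1.17, Foxp3 1.49, Cdc25b 3.03, Pde2a 2.94, Ntrk3 2.87, Nrp2 2.53, Cacnb3 2.51, Usp18 2.5, Myo10 2.45, Ak7 -4.18, B4galt4 -3.59, Ccl3 -3.16, Ccl4 -2.98, Eea1 -2.52, Mcm5 -0.88, S1pr1 2.26, Chaf1b -2.07, Txnip 2.07 and Il7r 2.07), CKO cells had a higher value for Klf2 (1.5), Cxcr4 (1.47), Tsc22d3 (1.31) and Cdkn1b (0.87) of the quiescent state, for Irf7 (1.44) and Samd9l (1.29) of the interferon list, for Prdm1 (1.66) and Gata3 (0.82) of the lineage factors, and for Pmepa1 (2.67), Psrc1 (2.23), Cyp2s1 (1.53) and Jun (1.43). They had a lower value for Il2ra (-1.10) and Tnfrsf4 (-1.29), for Orc1 (-1.55), Tk1 (-1.80) and Uhrf1 (-1.27) of the replication and methylation genes, and for Hk2 (-1.08), Rgs2 (-1.82), Trim24 (-2.03), Spin4 (-2.04), Upk1b (-2.96) and Tbx21 (-2.56). The calls of Klf2, Hk2, Cxcr4, Cdkn1b, Uhrf1, Samd9l, Gata3, Tbx21, Irf7 and Tk1 were lost when at least 1 of the arrays was left out. Of these 42 differences, 28 did not pass after normexp background correction, 12 under quantile normalization and the same number in the authors' values, and 8 with the signal floor. Il2ra did not pass under quantile normalization (adjusted p = 0.139), in the authors' values (0.139), after normexp (1) or with the floor (1), and Orc1 did not under quantile normalization (0.0604) or after normexp (0.871). For 4 genes the difference rests on a group in which no array was above background, so its size is not a measured level: the WT stimulated arrays for Upk1b and Prdm1, and the unstimulated arrays of both genotypes for Orc1 and Spin4.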

How the results depend on the processing

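Of 177 named genes, 150 kept their direction and their side of the threshold under every alternative that gave them a value, and the median of 24 of 32 gene lists stayed on one side of 0. Calls were lost or turned for 15 named genes after normexp and 8 with the signal floor. The count of genes changed by stimulation of CKO cells was 5936 after normexp and 5921 when at least a 2-fold change was asked for, a rule chosen after seeing the data, and ranged from 9198 to 9813 when each CKO array was left out in turn. Restricting to slides 1 and 4 (8421 genes) or to replicates 2 to 4 (8775) was also chosen after seeing the data. The count of response differences was 71 after normexp (30 higher, 41 lower), 297 with no filter, 865 with a signal floor (418 higher, 447 lower) and 2574 with array weights (1284 higher, 1290 lower), and ranged from 360 to 772 when each array was left out. The cause was not tested. With the replicate number as a block (replicate block) the counts were 10373 and 742; the numbers were not taken as pairs. Scan date as a block was not run, since all arrays were scanned on 1 day.

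Small values changed sign. Trim28 was -0.0311 under quantile normalization, -0.142 when arrays were scaled on probes above background everywhere, -0.0479 after normexp, -0.0312 in the authors' values and -0.126 with replicates 2 to 4 only, and ranged from -0.0907 to 0.178 when each CKO array was left out. Nrp2 was 0.226 with array weights and ranged from -0.296 to 0.0198 without single arrays, and Cacnb3 was 0.0605 with replicates 2 to 4 and ranged from -0.212 to 0.0032 without single arrays. Medians turned for cytosolic ribosomal proteins (-0.04 with that scaling, -0.03 after normexp), G1 regulators (0 with that scaling), stromal markers (0.02 after normexp) and early response factors (-0.09 to 0.49 without single arrays). Medians near 0 took both signs for mitosis (-0.24 to 0.15), Trim28 partners (-0.12 to 0.13) and genes most lowered by Trim28 loss (-1.31 to 0.11), and that of cytokines and chemokines reached 0 with the signal floor. On slides 1 and 4 alone Igh-VJ558, Penk, Bmf and Ntrk3 no longer passed. Genes near background are limited by signal.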
